A study of Glycyrrhiza uralensis with 48 samples.

Results

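The 4028 genes described here are single-exon genes that stand alone in the deposited annotation of Glycyrrhiza uralensis, the licorice plant. Each has exactly 1 annotated transcript, that transcript has exactly 1 exon, and the span of the gene overlaps no other annotated gene on its scaffold. They were picked from the gene models alone, without expression values, and make up 11.7% of the 34445 annotated genes. The 2 classes most like them are the 19690 genes with several exons and 1 transcript that also stand alone, and the 1356 single-exon genes that overlap another gene. Levels were read from a table of FPKM values (fragments per kilobase of transcript, scaled to library size) by gene identifier, and all 4028 members were found in it.

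Seedlings were 45 days old when their aerial and underground parts were collected separately. They had been grown 75 seeds to a pot in 1900 g of sterilised, nutrient-free desert sand. Stressed seedlings were kept at 35 to 45% of saturation moisture (drought, D), given 75 mM NaCl (salt, S), or given both (salt-drought, SD), and control seedlings (CK) received distilled water. Each of these 4 conditions was also run with 2 mM silicate, added as the potassium salt (D+Si, S+Si, SD+Si and CK+Si), so the silicate groups also received potassium. The 2 plant parts, 4 conditions and 2 silicate levels give 16 groups of 3 libraries. Whether the 3 libraries of a group came from separate pots or pooled plants is not stated in the labels, so the p-values reflect only how far these libraries scatter, part of which may be technical.

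Most plant genes are split by introns, which are removed from the transcript before it is translated, so a single-exon gene yields its messenger RNA without splicing. Such genes arise by loss of introns, by copying of a spliced RNA back into the genome, or within families that have long been without introns. In well-annotated plants they include many ethylene response factors, small auxin-up RNAs, F-box proteins, pentatricopeptide repeat proteins and small heat-shock proteins. In yeast, Arabidopsis and mouse, genes whose transcript levels change rapidly under stress are known to have few introns. The files pair no identifier with a gene name or description, so which of these families the members belong to is not known here. For that reason members carry their identifiers below, with no more than 2 rises and 2 falls named in any comparison. Positions are 1-based on the scaffolds of the deposited annotation.

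As gene models the members were short and nearly all without untranslated ends. Their exon had a median length of 547.5 nt (quartiles 327 and 1050.75, range 93 to 4200), against 1241 nt of exon in the multi-exon genes standing alone. In 3927 of the 4028 members (97.5%) the exon was the coding sequence and nothing more, whereas 42.1% of the multi-exon genes standing alone had no annotated untranslated region. The overlapping single-exon genes were like the members in this, with none in 97.6%. The members lay on 1953 of the 4853 scaffolds, 1986 on the plus strand and 2042 on the minus strand. Their nearest neighbour was a median of 2280.5 bp away (quartiles 1080.25 and 4676), against 1847 bp for the multi-exon genes standing alone. A further 408 members (10.1%) were the one gene on their scaffold, against 6.72% of the multi-exon class. Of the members, 1046 lay next to another member, in 482 stretches of at least 2 in a row. Of these stretches 416 were pairs, 56 held 3, 6 held 4, 2 held 5 and 2 held 6. How many stretches their share of the genes alone would give was not tested. The overlap rule removed no gene on the same strand, since all 1356 overlapping single-exon genes overlap others on the opposite strand only. Counting overlaps on the same strand alone would give 5384 members.

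Sequencing depth had to be estimated from the steps between low FPKM values and was roughly 14.8 to 33.6 M fragments per library (M, mega), with a median of 19.3 M. At a member of median length, 1 FPKM then stands for 8.09 to 18.4 fragments. A median of 46.1% of the low values lay within 0.1 of a whole number of fragments where chance gives 20%, so counts were not recovered and these depths are approximate. Of the 24 aerial libraries, 2 had high levels of underground marker genes. The 11 markers are not members and were picked from these same values. Each had at least 100 FPKM in every underground library and an aerial median under 0.5% of its underground median. Their median was 12.3% of the underground level in aerial SD+Si replicate 2 and 9.65% in aerial D replicate 3. In the latter all 11 markers lay at 7.13% or more. Whether such transcripts were carried over or made in aerial parts was not tested. Aerial SD+Si replicates 3 and 1 stood at 1.99% and 1.04%, and no other aerial library exceeded 0.448%. The SD libraries of the aerial parts were at 0.061 to 0.072%. Only 2 aerial markers were found, and their highest median in an underground library was 3.67%.

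Members were detected less often than annotated genes as a whole. At a minimum of 1 FPKM, underground libraries held a median of 2234 members (55.5%, range 53.4 to 56.7%) and aerial libraries 2045 (50.8%, range 46.8 to 56.1%). Among all annotated genes the medians were 60.0% underground and 56.9% in aerial parts. Single-exon genes overlapping another gene stood lower than the members, at 49.3% underground and 45.2% in aerial parts. In aerial parts 1919, 1960 and 1886 members were detected in SD libraries, against 2042, 2112 and 2063 in CK libraries, and 3 libraries against 3 cannot give an exact permutation p below 0.1. All annotated genes showed the same order, with 18933, 19188 and 18869 detected in SD and 19529, 19782 and 19783 in CK. The median member stood at 1.59 FPKM underground and 1.07 FPKM in aerial parts, against 2.81 and 2.15 FPKM for all annotated genes in the same order. Among genes that were detected the gap was smaller, with medians of 8.39 FPKM underground and 8.64 FPKM aerial for members and 10.4 and 11 FPKM for all annotated genes. Members supplied a median of 13.3% of the summed FPKM underground (range 11.6 to 18.0%) and 15.5% in aerial parts (range 14.1 to 16.7%). Both medians were above their 11.7% share of the annotated genes, though the sum also counts rows without gene models. Overlapping single-exon genes, 3.94% of the genes, supplied a median of 11.8% underground (range 8.15 to 18.2%) and 4.18% in aerial parts. The 10 highest members of a library made up a median of 3.48% underground and 4.74% in aerial parts. In the 48 libraries, 259 members were listed at 0 throughout, and a further 905 were above 0 somewhere but never reached 1 FPKM in at least 3 libraries. At the other end, 141 members averaged at least 100 FPKM underground and 177 did so in aerial parts.

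Detection climbed with exon length and was low for genes alone on a scaffold. Under 300 nt, 43.4% of 840 members were detected in the median underground library and 38.1% in the median aerial one. The shares were 52.8% and 48.3% of the 1325 members of 300 to under 600 nt, and 60.1% and 56.1% of the 1045 members of 600 to under 1200 nt. Among the 818 members of 1200 nt or more, 66.5% were detected underground and 62.0% in aerial parts. Members alone on a scaffold were detected at 41.4% in the median library of both parts. Those with a neighbour under 1000 bp away stood at 49.2% underground and 43.6% in aerial parts, where the libraries of these 2 classes overlapped (40.9 to 47.9% and 38.2 to 47.1%). Members whose nearest gene lay 1000 to under 5000 bp away reached 59.6% underground and 55.0% in aerial parts. Short models also hold fewer fragments per FPKM, and the part this plays in detection was not tested.

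**Figure D1:**
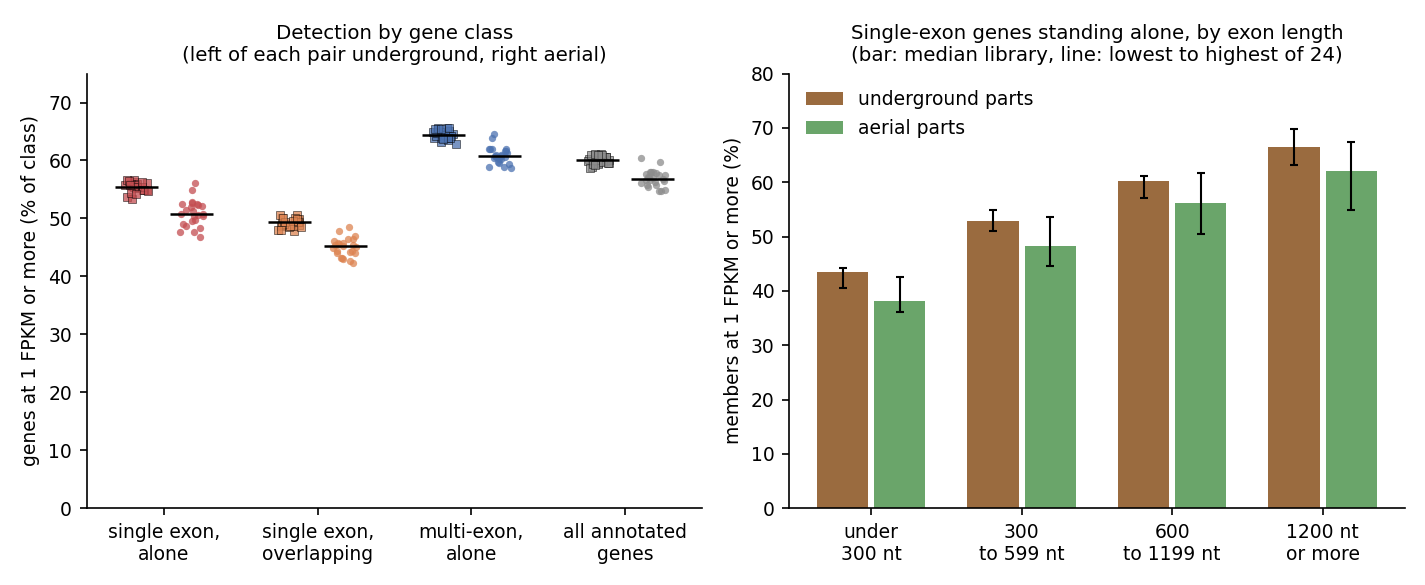
Share of genes at 1 FPKM or more, in percent, for 4 gene classes (left panel, 24 underground and 24 aerial libraries per class) and for the members by exon length (right panel). In the right panel the bars are the median library and the lines run from the lowest to the highest of 24 libraries. Members lie below multi-exon genes standing alone in both plant parts, and detection of members climbs from 43.4 to 66.5% underground and from 38.1 to 62.0% in aerial parts with exon length.

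A few members were among the most heavily transcribed genes of the seedlings. In aerial parts the highest mean was that of Glyur000183s00013015 (Scaffold00183, 7217 to 7483, minus strand, 267 nt), with a lowest, median and highest level of 3694, 8174 and 13770 FPKM over 24 libraries. It was also abundant underground, with a mean of 2377 FPKM. The next 2 aerial members were much lower underground. Glyur000015s00000859 (Scaffold00015, 587329 to 587583, 255 nt) averaged 240 ± 156 FPKM underground and 6881 ± 2984 FPKM in aerial parts (SD, n = 24 each). Glyur004465s00040479 (Scaffold04465, 1091 to 1345, 255 nt) averaged 128 ± 114 FPKM underground and 3844 ± 1929 FPKM in aerial parts (SD, n = 24 each). In aerial parts this last gene varied between libraries of one group: replicates 1 to 3 of D had 6117, 279.9 and 6818 FPKM. Underground, the 3 most abundant members were Glyur001944s00035551, Glyur001280s00031951 and Glyur002126s00036414, with means of 4415, 3241 and 2498 FPKM. Glyur002126s00036414 (Scaffold02126, 27519 to 27818, 300 nt) ranged from 1208 to 4496 FPKM in underground libraries. It reached 568 and 515 FPKM in the 2 aerial libraries with the highest underground markers.

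Other members scarcely moved. Of the 253 members with at least 20 FPKM in all 48 libraries, Glyur000218s00011612 had the smallest range of the 16 group means, 0.28 on the log2 scale. This gene (Scaffold00218, 91419 to 92924, 1506 nt) lay between 22.8 and 33.6 FPKM underground and between 23.3 and 33.7 FPKM in aerial parts. Glyur000440s00021871 (Scaffold00440, 125158 to 125903, 746 nt) came next with a range of 0.30, between 41.9 and 64.2 FPKM underground and between 43.9 and 62.6 FPKM in aerial parts.

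Underground and aerial parts differed in most of the members that could be tested. Changes are differences of log2(FPKM + 1), which understate the change of genes at low FPKM, and a gene was called at a Benjamini-Hochberg adjusted p under 0.05 in limma over all genes tested. Genes under 1 FPKM in all but 2 or fewer libraries of a fit were not tested. In control seedlings 916 members were higher and 727 lower underground than in aerial parts, 57.4% of the 2864 tested, against a background of 58.7% of all genes (31.1% higher, 27.5% lower). The share of members that differed was thus close to that of the whole table. Such differences in whole plant parts do not separate fewer cells of a type from less RNA per cell.

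The called members with the largest difference were nearly absent from the other part. Glyur001944s00035551 (Scaffold01944, 23875 to 24705, minus strand, 831 nt) had 4502, 3691 and 5862 FPKM in underground CK libraries, against 0.812, 0.32 and 0.449 FPKM in aerial CK libraries. Its log2 difference was 11.57 (SE 0.99, adjusted p = 2.67e-12). Glyur001280s00031951 (Scaffold01280, 66581 to 66961, 381 nt) had 2987, 3163 and 5978 FPKM underground, against 4.04, 0.97 and 18.8 FPKM in aerial parts, with a log2 difference of 9.37 (SE 1.03, adjusted p = 1.05e-09). On the aerial side, Glyur000137s00013337 (Scaffold00137, 206649 to 207026, 378 nt) had 2.86, 0 and 0.698 FPKM underground, against 200.4, 261 and 496 FPKM in aerial parts. Its log2 difference was -7.31 (SE 0.73, adjusted p = 9.62e-11). Glyur000036s00004671 (Scaffold00036, 417029 to 418177, 1149 nt) had 0.767, 0.218 and 0.428 FPKM underground, against 138, 257 and 162 FPKM in aerial parts, a difference of -6.96 (SE 0.43, adjusted p = 8.13e-16).

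Under stress many members fell. In all 12 comparisons of a stress with its own unstressed group, a larger share of the tested members fell than of all genes tested. The 3 stresses of a plant part and silicate level share their unstressed libraries, so the 12 comparisons are not independent. Underground drought gave 67 rises and 148 falls among 2628 members, so 8.18% were called, against a background of 3.44% (rises 1.21%). Falls took 5.63% of the members, 2.23% of all genes and 1.66% of the multi-exon genes standing alone. Members were 10.7% of the genes tested underground and 27.2% of those that fell. They were also 22.6% of those that rose, so members were called more often than all genes in both directions. In aerial parts, drought gave 66 rises and 87 falls among 2457 members (6.23%, background 3.33%, rises 1.66%), and falls took 3.54% of members, 1.66% of all genes and 1.32% of the multi-exon class. Rises there took 2.69% of the members, again above their background.

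Salt and salt-drought widened the response and kept the tilt. Underground salt raised 248 members and lowered 339 (22.3%, background 18.0%, rises 9.64%), and falls took 12.9% of members and 8.35% of all genes. Underground salt-drought raised 390 and lowered 416 (30.7%, background 27%, rises 17.1%), with falls in 15.8% of members and 9.95% of all genes. In aerial parts salt raised 79 members and lowered 151 (9.36%, background 6.96%, rises 2.99%), with falls in 6.15% of members and 3.97% of all genes, and gave 135 called members without CK replicate 1. Aerial salt-drought raised 235 and lowered 475 (28.9%, background 29.3%), so members were called about as often as all genes but fell in 19.3% of cases, against 16.2%. Rises did not share the tilt there: 9.56% of members rose in aerial salt-drought, against 13% of all genes, and 14.8% rose in underground salt-drought, against 17.1%. The median log2 change of all genes was 0.11 in underground salt-drought, and after rescaling to a common median ratio, which brought it to 0.03, the members' calls were 318 rises and 483 falls. The calls of all genes after rescaling are not given here, so this shift is not a result about the members.

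With silicate present throughout, the same comparison against CK+Si used other libraries and gave the same tilt. Underground D+Si raised 4 members and lowered 93 (3.69%, background 1.03%, rises 0.0858% and falls 0.94%), and members made up 40.4% of all genes that fell. Underground S+Si raised 160 and lowered 374 (20.3%, background 17.1%, rises 8.88% and falls 8.24%), and underground SD+Si raised 110 and lowered 399 (19.4%, background 13.7%, rises 5.2% and falls 8.54%). In aerial parts D+Si raised none and lowered 7 (0.285%, background 0.137%, rises 0.0214% and falls 0.115%), with 260 members at an unadjusted p under 0.05 in limma. Aerial S+Si raised 49 and lowered 92 (5.74%, background 4.36%, rises 2.04% and falls 2.32%), and aerial SD+Si raised 137 and lowered 229 (14.9%, background 12%, rises 5.84% and falls 6.17%). The aerial D+Si count depended on single libraries and was 0 without CK+Si replicate 1 or D+Si replicate 2, 2 without CK+Si replicate 2 and 4 without D+Si replicate 1. Underground D+Si gave 33 and 36 called members without D+Si replicate 2 or 3, and 40, 51 and 63 without CK+Si replicate 2, 1 or 3. Aerial S+Si gave 54 and 89 without CK+Si replicate 1 or 2, and 86 and 66 without S+Si replicate 1 or 3. Aerial SD+Si gave 242 without SD+Si replicate 2, and underground S+Si gave 318 without CK+Si replicate 2.

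**Figure D2:**
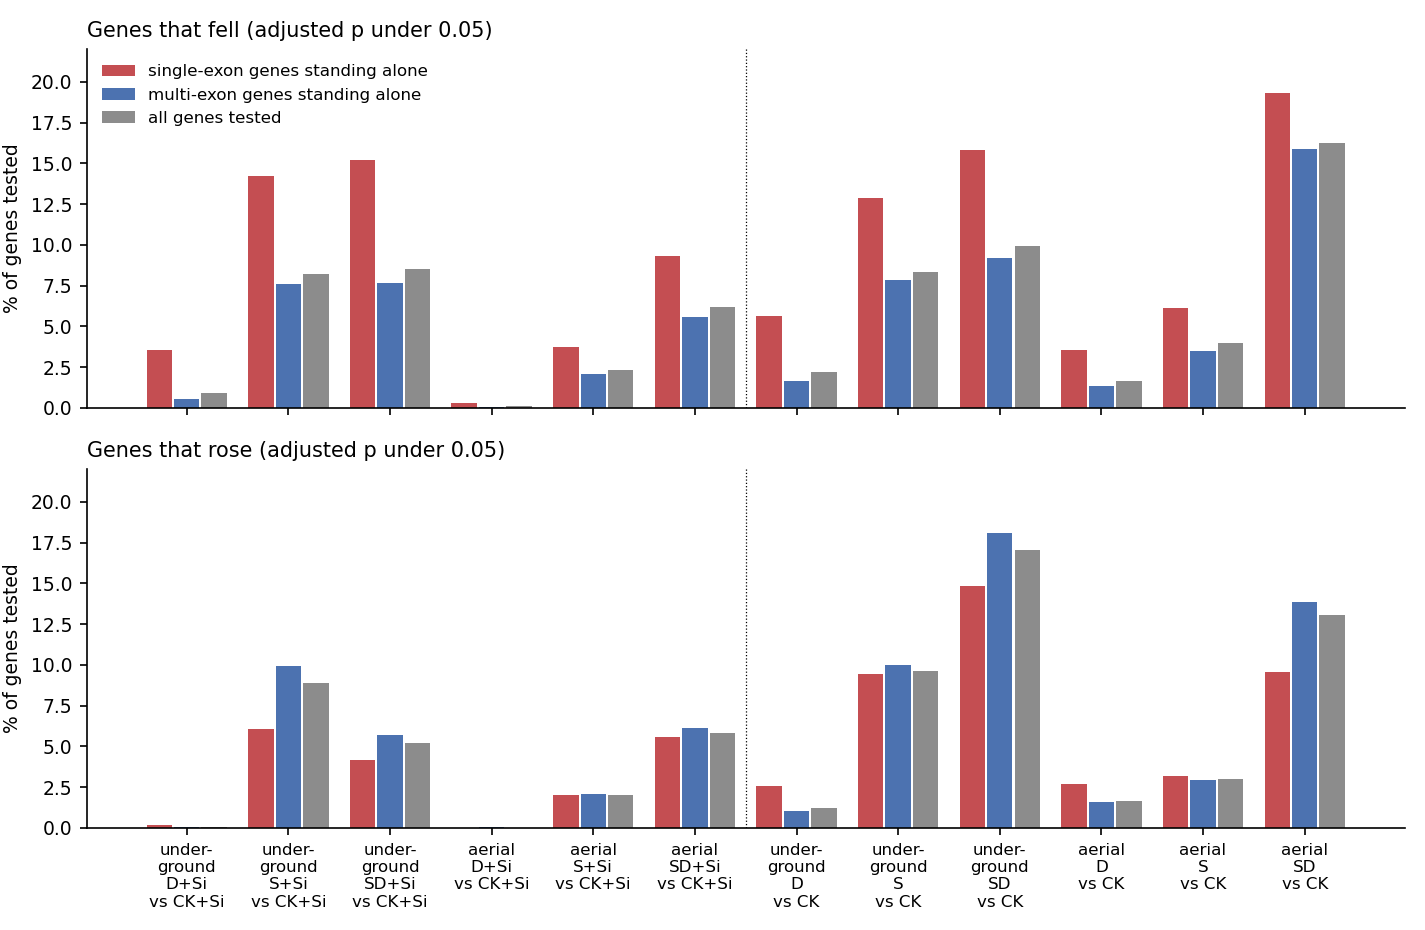
Genes that fell (upper panel) and rose (lower panel) at an adjusted p under 0.05, in percent of the genes tested, for 12 comparisons of a stress with its unstressed group. Bars are the members, the multi-exon genes standing alone and all genes tested, and comparisons with silicate lie left of those without. In the upper panel the bar of the members is the tallest of the 3 in every comparison, for example 5.63% against 1.66 and 2.23% in underground drought.

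The tilt toward falls was not limited to weakly or strongly expressed members. Among genes averaging at least 20 FPKM underground, 71 of 705 members fell in drought (10.1%), against 3.40% of all such genes and 2.05% of such multi-exon genes standing alone. Between 5 and 20 FPKM the shares were 6.52% of members and 2.40% of all genes, and under 5 FPKM they were 2.39% and 1.28%. The gap was narrowest in aerial salt-drought under 5 FPKM, where 12.3% of members and 11.4% of all genes fell. Called changes were also larger in members, in both directions. Median log2 changes of the genes that fell in underground drought were -1.39 for members and -1.01 for all genes. For the genes that rose they were 0.98 and 0.89. Of the 84 genes that fell by at least 2 log2 units, 42 were members. These medians cover called genes only, and members scatter more within groups, so a member needs a larger change to be called. The part this plays was not tested.

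**Figure D3:**
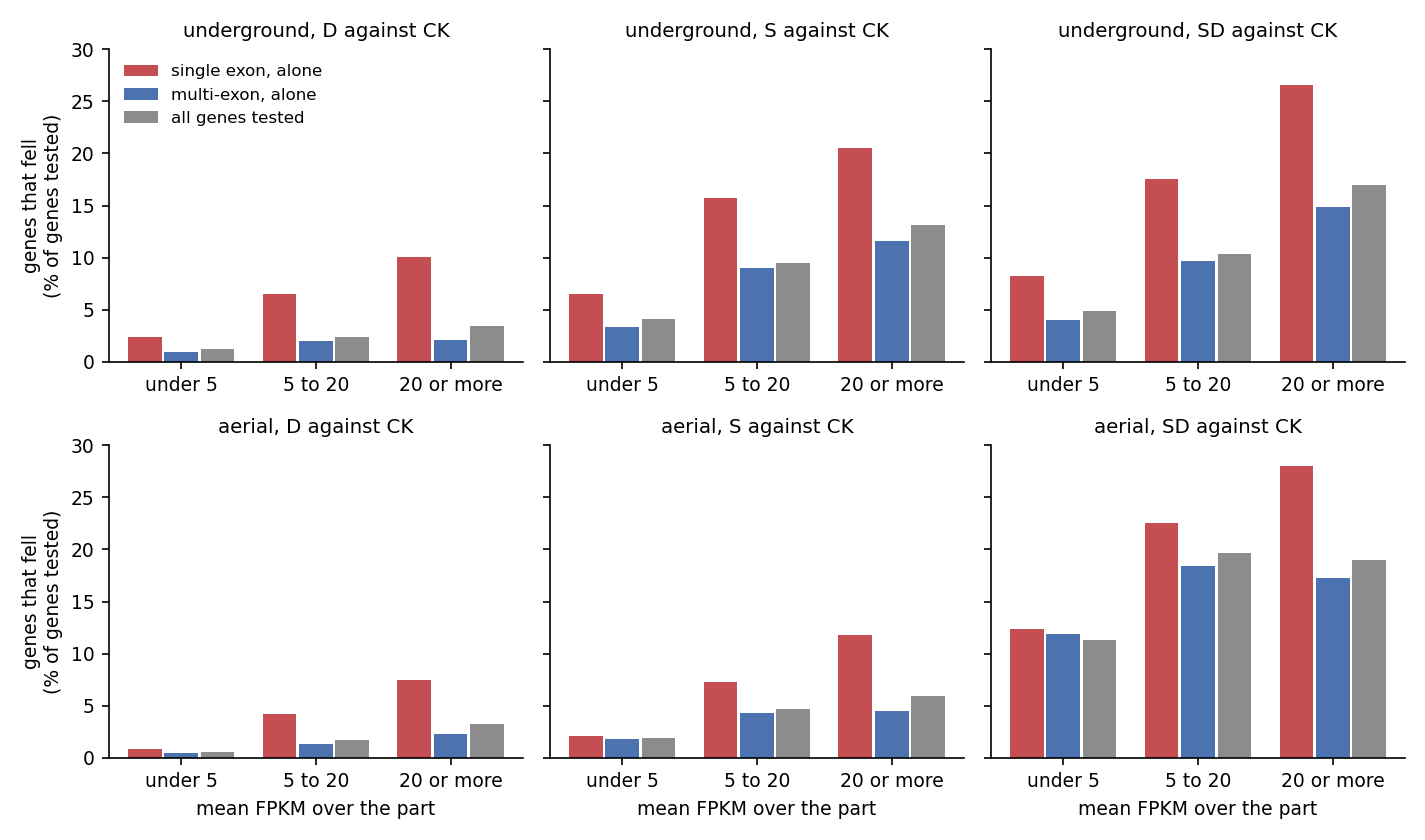
Genes that fell under drought, salt or salt-drought against CK, in percent of the genes tested, split by mean FPKM over the 24 libraries of the plant part (under 5, 5 to 20, 20 or more). Bars are members, multi-exon genes standing alone and all genes tested. Members lie above all genes in each level class, by the widest ratio in drought (10.1% against 3.40% at 20 FPKM or more underground) and by little in aerial salt-drought under 5 FPKM (12.3% against 11.4%).

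Falls were more frequent among longer members and were as frequent in single-exon genes that do not stand alone. Members under 300 nt fell in 1.04% of 482 cases in underground drought, against 7.61% of the 696 members of 600 to under 1200 nt and 7.19% of the 612 members of 1200 nt or more. In aerial salt-drought falls took 7.27% of members under 300 nt and 29.4% of members of 1200 nt or more. All genes were not split by length, so whether this order is particular to members was not tested. Short models hold fewer fragments per FPKM, and the part this plays in the calls was not tested either. Single-exon genes that overlap a gene on the other strand fell at similar shares: 5.36% of 784 in underground drought and 17.9% in underground salt-drought, and 23.6% of 730 in aerial salt-drought. Whether the counting used strand is not given in the sources used here, so fragments of those overlapping genes and of their partners cannot be told apart. Members also varied more between libraries of a group, with a median within-group SD of 0.321 (log2) underground and 0.347 in aerial parts, against 0.234 and 0.253 for all genes tested. The range of the 8 group means was wider too, at a median of 0.822 underground and 0.890 in aerial parts, against 0.599 and 0.672. Such a range also grows with the scatter within groups, and the part this plays was not tested.

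Underground, many falls recurred in libraries that the first comparison did not use, and in aerial parts fewer did. Of the 148 members that fell in underground D against CK, 75 also fell in D+Si against CK+Si, 50.7% of the 148 and 80.6% of the 93 that fell there, and 144 of the 148 had a negative change. Among all genes 188 of 545 (34.5%) fell in both. In underground salt 212 members fell both without silicate (62.5% of 339) and with it (56.7% of 374), where the shares for all genes were 49.1% and 49.8%. In underground salt-drought 291 did (69.95% of 416, 72.9% of 399), with 56.6% and 65.9% for all genes. In aerial parts 7 members fell in drought both without silicate (8.05% of 87) and with it (all 7), 48 did in salt (31.8% of 151, 52.2% of 92) and 181 in salt-drought (38.1% of 475, 79.0% of 229). The shares for all genes in aerial parts were 4.11% and 59.3% in drought, 29.2% and 50% in salt, and 25.01% and 65.9% in salt-drought. Between the parts, 47 members fell in drought both underground and in aerial parts, 55.3% of the 85 aerial falls that were tested in both and 32.9% of the 143 underground ones. For all genes these shares were 32.4% and 23.4%. Control libraries that carry one replicate number correlated in their deviations between the plant parts (r 0.297, 0.325 and 0.236), so the parts are not fully independent here.

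Underground, drought lowered Glyur000529s00019343 and Glyur000149s00009546 most among the members. Glyur000529s00019343 (Scaffold00529, 58811 to 59434, plus strand, 624 nt) had 4.06, 4.82 and 8.62 FPKM in D libraries, against 169.7, 302 and 217 FPKM in CK libraries. Its log2 change was -5.09 (SE 0.69, adjusted p = 0.000166). Glyur000149s00009546 (Scaffold00149, 30843 to 31418, minus strand, 576 nt) had 1.92, 8.33 and 7 FPKM in D, against 161, 166 and 173 FPKM in CK, a change of -4.80 (SE 0.60, adjusted p = 8.81e-05). That the libraries of a pair of groups do not overlap is part of the rule by which genes are named, here and below, and adds no support. The rises rested on CK libraries listed at 0. Glyur008866s00047708 (Scaffold08866, 283 to 618, alone on its scaffold, 336 nt) had 31.4, 25.5 and 25.6 FPKM in D and was listed at 0, 0 and 5.73 FPKM in CK (adjusted p = 0.0336). Glyur001613s00035720 (Scaffold01613, 61138 to 61470, 333 nt) had 14.9, 19.3 and 18.1 FPKM in D and was listed at 0, 0 and 4.18 FPKM in CK (adjusted p = 0.0327). Both lost their call without any one of CK replicates 1 and 2 or D replicates 1 to 3, with adjusted p up to 0.153 and 0.15.

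In underground salt the same pair fell most. Glyur000149s00009546 had 2.25, 3.98 and 0.626 FPKM in S libraries, against 161, 166 and 173 FPKM in CK, a log2 change of -5.82 (SE 0.60, adjusted p = 3.5e-06). Glyur000529s00019343 had 8.06, 8.39 and 1.85 FPKM in S, against 169.7, 302 and 217 FPKM in CK (-5.17, SE 0.69, adjusted p = 5.34e-05). Among the rises, Glyur000605s00024928 (Scaffold00605, 121960 to 122862, 903 nt) had 54.4, 67.6 and 59.2 FPKM in S, against 8.16, 9.54 and 3.76 FPKM in CK (2.99, SE 0.42, adjusted p = 9.22e-05). In aerial parts it fell in salt, with 62.9, 90.3 and 89.4 FPKM in S against 123, 265 and 172 FPKM in CK (-1.14, SE 0.30, adjusted p = 0.0263). Glyur000131s00012974 (Scaffold00131, 61923 to 62297, 375 nt) had 55.2, 21.3 and 23.3 FPKM in underground S, against 1.87, 9.21 and 2.14 FPKM in CK (2.79, SE 0.60, adjusted p = 0.00334).

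Salt-drought pushed both kinds of change further underground. Glyur000195s00012851 (Scaffold00195, 131634 to 132452, minus strand, 819 nt) had 0.214, 0.356 and 0.922 FPKM in SD libraries, against 116, 145 and 138 FPKM in CK, a log2 change of -6.51 (SE 0.62, adjusted p = 6.63e-07). Glyur000529s00019343 had 0.585, 2.71 and 2.12 FPKM in SD (-6.41, SE 0.69, adjusted p = 2.5e-06). Glyur000131s00012974 had 67.7, 83.3 and 54.7 FPKM in SD, against 1.87, 9.21 and 2.14 FPKM in CK (3.92, SE 0.60, adjusted p = 0.000112). Glyur000022s00002063 (Scaffold00022, 492052 to 492408, 357 nt) had 89.9, 24.1 and 50.3 FPKM in SD, against 2.95, 2.94 and 2.75 FPKM in CK (3.66, SE 0.57, adjusted p = 0.00013).

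Aerial parts shared the strongest falls. Glyur000529s00019343 had 24, 20.8 and 31.8 FPKM in aerial D, 33.6, 22.8 and 10.7 FPKM in S and 0.446, 5.24 and 1.48 FPKM in SD, against 191, 298 and 319 FPKM in CK. The log2 changes were -3.34 (SE 0.42, adjusted p = 0.000234) in drought, -3.63 (SE 0.42, adjusted p = 3.47e-05) in salt and -6.55 (SE 0.42, adjusted p = 1.3e-08) in salt-drought. These 3 comparisons share their CK libraries. Glyur000080s00008691 (Scaffold00080, 224929 to 226329, minus strand, 1401 nt) had 49.3, 29.2 and 53.4 FPKM in D and 3.54, 15.6 and 11.7 FPKM in SD, against 198, 467 and 474 FPKM in CK. It changed by -3.02 (SE 0.56, adjusted p = 0.00555) in drought and by -5.16 (SE 0.56, adjusted p = 3.86e-06) in salt-drought. Glyur001519s00034462 (Scaffold01519, 15177 to 15812, 636 nt) had 0.77, 0.614 and 1.09 FPKM in S, against 21.8, 16.3 and 16.04 FPKM in CK (-3.38, SE 0.34, adjusted p = 7.93e-06).

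Aerial rises were led by Glyur000653s00025435 in salt and salt-drought. This gene (Scaffold00653, 46668 to 47699, minus strand, 1032 nt) had 352, 113 and 146 FPKM in S and 125, 226 and 313 FPKM in SD, against 13.4, 30.8 and 14.3 FPKM in CK. Its changes were 3.24 (SE 0.40, adjusted p = 6.09e-05) and 3.44 (SE 0.40, adjusted p = 7.43e-06). Glyur000131s00012970 (Scaffold00131, 31384 to 31803, 420 nt) had 124, 156 and 68.3 FPKM in SD, against 7.77, 16.9 and 7.09 FPKM in CK (3.36, SE 0.40, adjusted p = 1.07e-05). Glyur006769s00047931 (Scaffold06769, 3774 to 4148, alone on its scaffold, 375 nt) had 109, 32.5 and 11.5 FPKM in S, against 8.86, 2.34 and 3.39 FPKM in CK (2.77, SE 0.65, adjusted p = 0.0146). Its call was lost without S replicate 1 (adjusted p = 0.0812) or CK replicate 2 (adjusted p = 0.0644), and over all alternatives the adjusted p ran from 0.00309 to 0.174.

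The aerial rises in drought involve a library with high underground markers. Glyur008866s00047708 had 20.6, 26.3 and 18.8 FPKM in D and was listed at 0, 0 and 3.48 FPKM in CK (adjusted p = 0.00752). Glyur000125s00010033 (Scaffold00125, 188050 to 188280, 231 nt), which averages 156 FPKM underground, had 4.08, 11.4 and 50.01 FPKM in D, against 0.255, 1.47 and 1.07 FPKM in CK (2.99, SE 0.70, adjusted p = 0.0252). The highest of these was D replicate 3, the library with underground markers at 9.65%. The gene lost its call without D replicate 3 (adjusted p = 0.0981) or replicate 2 (adjusted p = 0.0554), and without any CK replicate. Its adjusted p ran from 0.0101 to 0.162 over the alternatives, and whether underground material made part of its rise was not tested. For drought as a whole, the called members numbered 116 without D replicate 3, 85 without D replicate 1 or 2, and 64 and 82 without CK replicate 2 or 3.

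With silicate, most of the leading underground falls were in genes already named without it. Glyur000529s00019343 had 11.8, 1.35 and 2.77 FPKM in underground D+Si, against 120.4, 61.4 and 64.5 FPKM in CK+Si (-4.03, SE 0.69, adjusted p = 0.00498). Glyur000149s00009546 had 8.96, 2.48 and 7.39 FPKM in underground D+Si, against 89.1, 66.0 and 55.5 FPKM in CK+Si (-3.40, SE 0.60, adjusted p = 0.00672). Without D+Si replicate 2 its adjusted p was 0.0588, and over its alternatives it ran from 0.00717 to 0.0588. In underground S+Si Glyur000149s00009546 had 0.834, 2.39 and 13.9 FPKM (-3.95, SE 0.60, adjusted p = 0.000229). Glyur000885s00041681 (Scaffold00885, 6939 to 7907, 969 nt), not among the leading falls without silicate, had 11.5, 13.9 and 24.5 FPKM in underground S+Si, against 342, 247 and 183 FPKM in CK+Si (-3.89, SE 0.36, adjusted p = 1.51e-06). In underground SD+Si Glyur000080s00008691 had 7.90, 2.67 and 2.78 FPKM, against 211, 263 and 187 FPKM in CK+Si (-5.46, SE 0.64, adjusted p = 1.32e-05). Glyur000195s00012851 had 1.29, 0.161 and 0.584 FPKM in underground SD+Si, against 78.0, 41.4 and 48.8 FPKM in CK+Si (-5.09, SE 0.62, adjusted p = 1.88e-05).

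Underground, 2 genes of Scaffold00131 led the rises in SD+Si, and 1 of them was also among the leading rises in S+Si. Glyur000131s00012970 had 498, 239 and 229.6 FPKM in underground S+Si and 572, 262 and 858 FPKM in SD+Si, against 82.2, 41.9 and 39.9 FPKM in CK+Si. Its changes were 2.52 (SE 0.51, adjusted p = 0.00248) and 3.26 (SE 0.51, adjusted p = 0.000222). Glyur000131s00012974 had 46.6, 23.9 and 93.2 FPKM in SD+Si, against 3.63, 5.41 and 4.85 FPKM in CK+Si (3.11, SE 0.60, adjusted p = 0.0016). The 2 genes lie on the same strand, with other genes between them. Drought alone did not move Glyur000131s00012970 beyond the spread, at 46.8, 25.4 and 50.7 FPKM in underground D against 41.3, 82.4 and 45.0 FPKM in CK (-0.44, SE 0.51, adjusted p = 0.753). Glyur001282s00029600 (Scaffold01282, 43049 to 43582, 534 nt) had 46.1, 83.4 and 28.5 FPKM in underground S+Si, against 7.33, 5.34 and 8.14 FPKM in CK+Si (2.64, SE 0.47, adjusted p = 0.000991). In underground D+Si the 2 largest rises were small in FPKM: Glyur001180s00029551 had 6.46, 6.48 and 3.92 FPKM, against 0.0921, 0.418 and 1.80 FPKM in CK+Si (2.00, SE 0.40, adjusted p = 0.0146). Glyur000017s00002449 had 23.9, 29.997 and 23.4 FPKM, against 6.47, 4.80 and 9.01 FPKM in CK+Si (1.81, SE 0.41, adjusted p = 0.0348), and it lost its call without any one of the 6 libraries compared. Glyur001180s00029551 lost its call without CK+Si replicate 1 or 2 or D+Si replicate 2, with adjusted p between 0.00843 and 0.0931 over its alternatives.

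In aerial parts with silicate, some of the leading falls were those seen without it and others were not. Glyur000195s00012851 had 2.22, 1.58 and 1.59 FPKM in D+Si and 0.753, 0.536 and 0.611 FPKM in SD+Si, against 41.6, 29.7 and 21.4 FPKM in CK+Si. Its changes were -3.47 (SE 0.52, adjusted p = 0.0155) and -4.24 (SE 0.52, adjusted p = 3.43e-05). Glyur000529s00019343 had 10.1, 12.8 and 20.2 FPKM in aerial D+Si, against 88.0, 77.2 and 80.8 FPKM in CK+Si (-2.48, SE 0.42, adjusted p = 0.0168). The drought calls of these 2 genes were lost without CK+Si replicate 1 or 2 or D+Si replicate 2, and that of Glyur000529s00019343 also without D+Si replicate 1, with adjusted p up to 0.0961 and 0.103. Glyur000374s00017957 (Scaffold00374, 127910 to 128302, 393 nt) had 0.681, 0.979 and 1.40 FPKM in aerial S+Si, against 23.3, 22.6 and 15.9 FPKM in CK+Si (-3.41, SE 0.30, adjusted p = 2.62e-06). Glyur001519s00034462 had 0.561, 0.981 and 0.173 FPKM in aerial S+Si, against 12.3, 14.2 and 8.48 FPKM in CK+Si (-3.02, SE 0.34, adjusted p = 4.4e-05). Glyur000175s00012066 (Scaffold00175, 198281 to 198970, 690 nt) had 2.28, 0.541 and 1.95 FPKM in SD+Si, against 36.9, 35.1 and 32.3 FPKM in CK+Si (-3.86, SE 0.44, adjusted p = 1.53e-05).

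On the rising side, Glyur000131s00012970 had 76.2, 52.8 and 33.5 FPKM in aerial S+Si and 136, 154 and 128 FPKM in SD+Si, against 3.72, 7.72 and 4.98 FPKM in CK+Si. Its changes were 3.06 (SE 0.40, adjusted p = 0.000215) and 4.48 (SE 0.40, adjusted p = 1.59e-06). Glyur005070s00047292 (Scaffold05070, 1471 to 2361, alone on its scaffold) had 19.4, 3.92 and 11.6 FPKM in aerial S+Si, against 1.49, 1.43 and 1.02 FPKM in CK+Si (2.23, SE 0.56, adjusted p = 0.0293). It lost its call without S+Si replicate 1 or 3 or any CK+Si replicate, with adjusted p between 0.0129 and 0.148 over its alternatives.

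**Figure D4:**
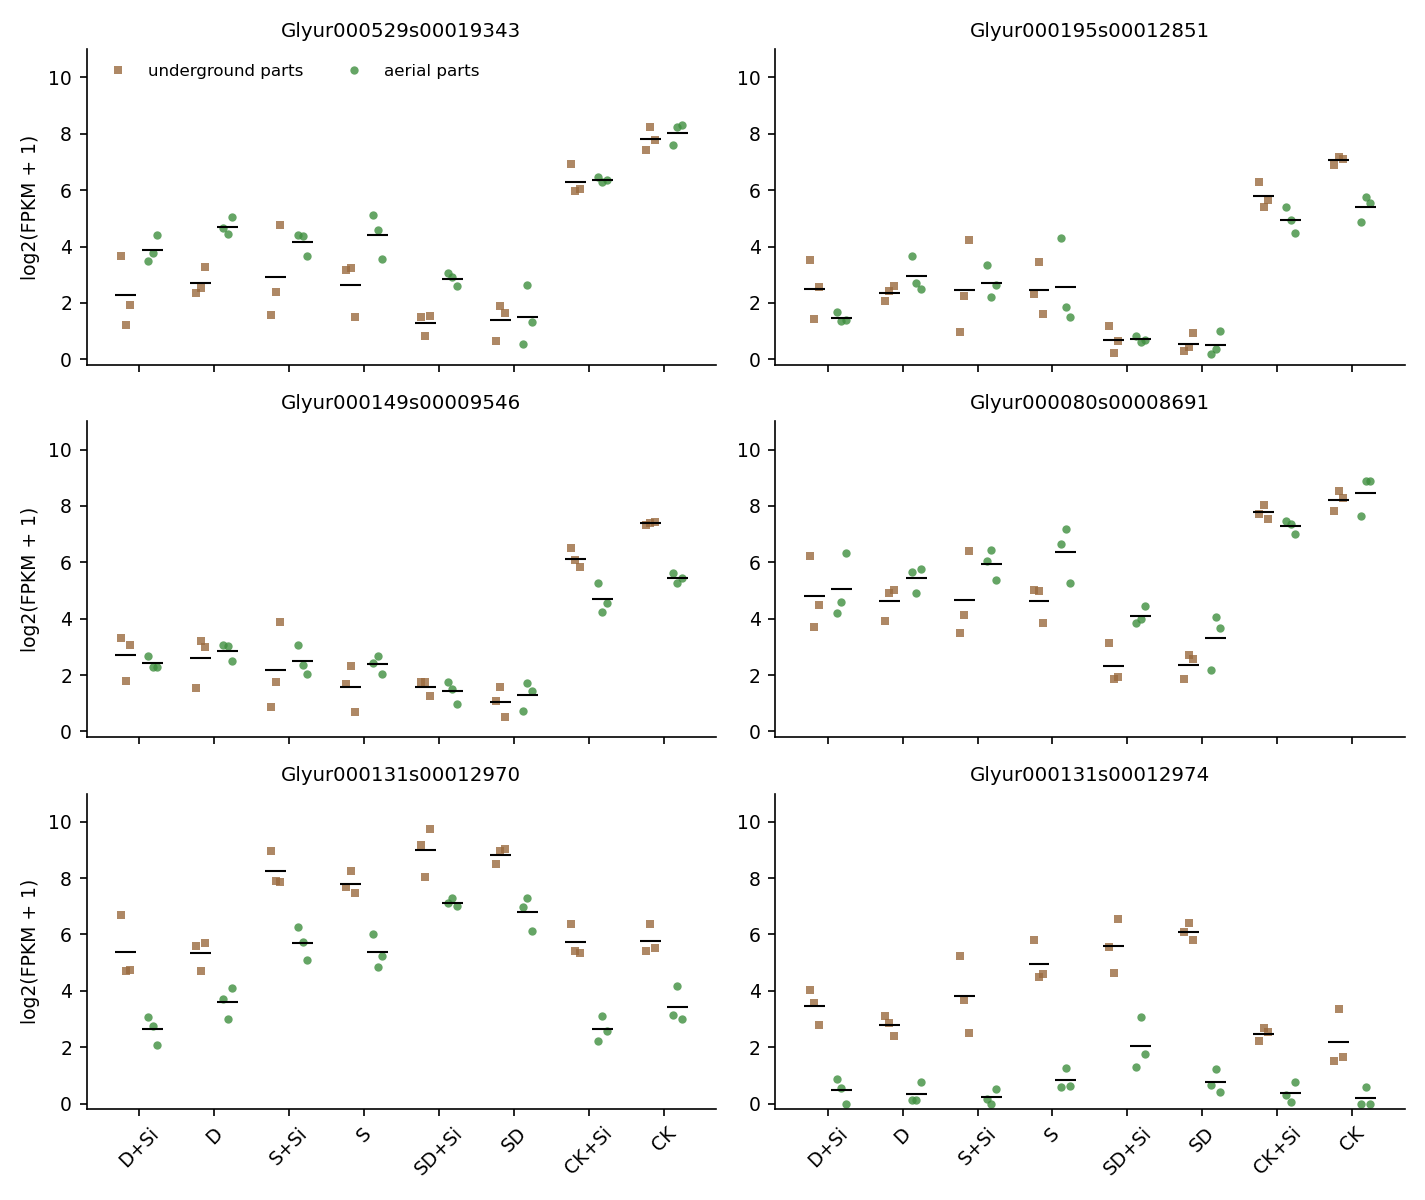
Levels of 6 members as log2(FPKM + 1) in each of the 48 libraries, by stress and silicate, with underground parts as squares, aerial parts as circles and group means as black lines. In the upper 4 panels all stressed groups lie below CK+Si and CK in both plant parts, as for Glyur000529s00019343 at 0.446 to 33.6 FPKM in aerial D, S and SD libraries against 191 to 319 FPKM in CK. For Glyur000131s00012970 the S and SD groups lie above CK in both parts and the D groups near it, whereas Glyur000131s00012974 is high in underground S, SD and SD+Si only, varies from 4.74 to 36.9 FPKM in underground S+Si, and stays at or below 7.51 FPKM in all aerial libraries.

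Silicate alone moved few members. Underground CK+Si raised 12 members and lowered none (0.457%, background 0.241%, rises 0.163% and falls 0.0776%), and aerial CK+Si raised 9 and lowered 7 (0.651%, background 0.445%, rises 0.248% and falls 0.197%). Glyur001184s00030528 (Scaffold01184, 47219 to 48034, minus strand, 816 nt) was among the risers of both parts. It had 11.8, 14.4 and 19 FPKM in underground CK+Si, against 3.46, 1.86 and 2.67 FPKM in CK (2.13, SE 0.33, adjusted p = 0.00915). In aerial parts it had 94.1, 98.8 and 93.8 FPKM in CK+Si, against 21.1, 16.3 and 17.6 FPKM in CK (2.33, SE 0.27, adjusted p = 0.000483). The underground call was lost without CK replicate 2 or CK+Si replicate 3, with adjusted p between 0.0059 and 0.0836 over its alternatives. Glyur000047s00003966 (Scaffold00047, 112198 to 112428, 231 nt) had 46.6, 74.5 and 55.5 FPKM in underground CK+Si, against 19, 8.95 and 14.2 FPKM in CK (2.02, SE 0.36, adjusted p = 0.0192), and lost its call without replicates 2 or 3 of either group. The underground count was 1 and 6 without CK replicate 2 or 3, and 7, 7 and 2 without CK+Si replicate 1, 2 or 3.

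In aerial parts without stress, silicate raised Glyur000732s00027540 (Scaffold00732, 83096 to 83890, 795 nt), which had 391, 228 and 188 FPKM in CK+Si, against 52.5, 24.7 and 69.5 FPKM in CK (2.48, SE 0.35, adjusted p = 0.00329). Glyur008935s00047863 had 8.75, 16.7 and 10.2 FPKM in CK+Si, against 0.905, 1.95 and 1.35 FPKM in CK (2.40, SE 0.43, adjusted p = 0.0162). The falls were smaller. Glyur001092s00028393 (Scaffold01092, 60326 to 62728, 2403 nt) had 5.97, 3.15 and 7.21 FPKM in CK+Si, against 15.1, 21.6 and 19.7 FPKM in CK (-1.66, SE 0.35, adjusted p = 0.0386). Glyur001439s00036371 had 2.11, 2.18 and 2.60 FPKM in CK+Si, against 11.8, 6.42 and 5.08 FPKM in CK (-1.34, SE 0.21, adjusted p = 0.00801). Of these, Glyur001092s00028393 lost its call without any one CK library or CK+Si replicate 1 or 2, Glyur008935s00047863 without CK replicate 1 or 2 or CK+Si replicate 2, and Glyur001439s00036371 without CK+Si replicate 2. With only the groups compared each gene of this paragraph lost its call, Glyur000732s00027540 at an adjusted p of 0.197. Glyur001092s00028393 lost its call in 9 of 12 alternatives. The aerial count was 3, 8 and 5 without CK+Si replicate 2, CK+Si replicate 1 or CK replicate 2.

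Silicate gave few or no calls in stressed seedlings other than in aerial salt-drought. No member was called in aerial D+Si against D, in aerial S+Si against S, in underground D+Si against D or in underground SD+Si against SD, where limma gave 294, 142, 165 and 235 members at an unadjusted p under 0.05 and backgrounds of 0.0, 0.0, 0.0 and 0.00409%. Without aerial D replicate 1 there were 2 called members in the first of these, and without SD+Si replicate 3 there were 53 in the last. Underground S+Si against S gave 3 rises and 5 falls (0.304%, background 0.159%, rises 0.0449% and falls 0.114%), a count that was 0 without S replicate 1 or any S+Si replicate and 83 without S replicate 2. A block for the replicate number gave 5. The largest fall, of Glyur000087s00008585, was to 0.515, 1.13 and 1.76 FPKM in S+Si, against 5.63, 6.86 and 4.35 FPKM in S (-1.66, SE 0.29, adjusted p = 0.0445). The largest rise, of Glyur000653s00025435, was to 17.6, 20.3 and 22.2 FPKM in S+Si, against 8.44, 8.32 and 10.3 FPKM in S (1.07, SE 0.21, adjusted p = 0.0445). This rise lost its call with the block (adjusted p = 0.0547), without S replicate 1 and without any S+Si replicate, with adjusted p between 0.0313 and 0.301 over its alternatives. The fall of Glyur000087s00008585 lost its call without the same 4 libraries, with adjusted p between 0.0262 and 0.326.

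Aerial salt-drought was the condition with many calls for silicate, 152 rises and 64 falls among 2457 members (8.79%, background 9.24%, rises 5.81% and falls 3.43%). Its SD+Si libraries also had raised underground markers. Glyur001944s00035551 had 70.3, 598 and 112 FPKM in aerial SD+Si, against 0, 0.33 and 0.372 FPKM in SD (adjusted p = 0.00435). Against CK+Si, at 6.43, 3.75 and 0.068 FPKM, its change was 5.66 (SE 1.26, adjusted p = 0.00623). Glyur001280s00031951 had 18.0, 609.9 and 46.2 FPKM in aerial SD+Si, against 0.69, 0.505 and 2.57 FPKM in SD (5.29, SE 1.37, adjusted p = 0.0235). These are the most abundant underground members, and their order over the 3 SD+Si libraries is that of the underground markers, 1.04, 12.3 and 1.99%. The markers were picked for high underground and low aerial levels, a pattern these 2 genes share. Without the 2 aerial libraries with the highest underground markers, 60 members were called in place of 216. The count over all genes in that setting is not given here, so the drop is not a result about the members. In that setting Glyur001280s00031951 lost its call against SD and Glyur001944s00035551 kept it. The latter lost it with only the groups compared (adjusted p = 0.0507). The count was 51 without SD+Si replicate 2, 128 without SD+Si replicate 3 and 42 without SD replicate 3. Whether underground material made part of the silicate difference was not tested.

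The 2 largest falls in that comparison were in genes that average more in aerial parts. Glyur000130s00006890 (Scaffold00130, 57817 to 58038, minus strand, 222 nt) had 3.53, 1.73 and 5.92 FPKM in aerial SD+Si, against 18.5, 15.4 and 18.5 FPKM in SD (-2.06, SE 0.37, adjusted p = 0.00435). Glyur004955s00045577 (Scaffold04955, 4118 to 4648, 531 nt) had 5.42, 8.32 and 9.57 FPKM in SD+Si, against 22.6, 21.7 and 35.5 FPKM in SD (-1.65, SE 0.35, adjusted p = 0.00915), and lost its call without SD replicate 3 (adjusted p = 0.0665, between 0.0081 and 0.0665 over its alternatives).

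**Figure D5:**
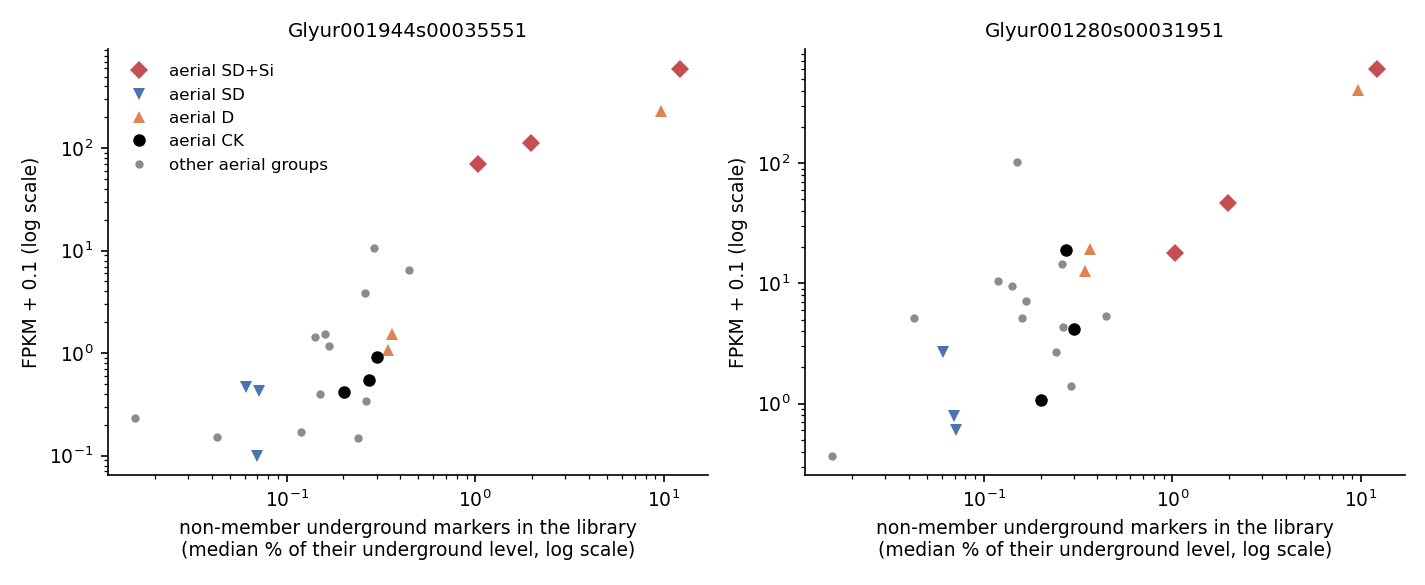
Level of the 2 most abundant underground members in the 24 aerial libraries, as FPKM + 0.1 on a log axis, against the level of 11 underground markers in the same library, in percent of their underground level on a log axis. The highest points of both genes are SD+Si replicate 2 (598 and 609.9 FPKM, markers at 12.3%) and D replicate 3 (231 and 405 FPKM, markers at 9.65%), and the SD libraries lie at the lower left.

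The plant parts responded differently to salt-drought in 518 members. The log2 response was higher underground than in aerial parts in 344 members and lower in 174 of the 2864 tested (18.1%, background 17.7%, higher 12.8% and lower 4.85%). After rescaling to a common median ratio the split was 292 and 227, so 66.4% of the called members were higher underground as deposited and 56.3% after rescaling. All genes had a median difference of 0.14 before rescaling and of 0.05 after it, and their calls after it are not given here. Without underground SD replicate 1 the count was 336, and without aerial SD replicate 3 it was 337. Within aerial parts, the salt-drought response with silicate differed from that without it in 49 members, 23 higher and 26 lower (1.99%, background 2.07%, higher 1.2% and lower 0.872%). That count was 116, 6 and 27 without SD+Si replicate 1, 2 or 3, 26, 5 and 25 without CK+Si replicate 1, 2 or 3, 4 without SD replicate 3, and 28 and 16 without CK replicate 1 or 2. A block for the replicate number gave 32.

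Neighbouring members had higher correlations of their levels than neighbouring multi-exon genes. Of 564 pairs of members side by side, 281 had both genes tested underground and 231 in aerial parts. Their levels correlated over 24 libraries with a median r of 0.167 underground and 0.250 in aerial parts, against 0.099 and 0.098 for pairs of multi-exon genes standing alone. An r of at least 0.8 was found in 6.76% of the member pairs underground and 6.06% in aerial parts, against 1.42% and 1.37%. On the same strand the share was 9.20% underground and 8.27% in aerial parts, and on opposite strands 3.39% and 3.06%. The points of each pair share libraries and conditions, and similar sequences could share fragments, which was not tested, so these values are descriptions. In the 2 longest stretches, of 6 members each on Scaffold00214 and Scaffold00843, most genes were near 0. On Scaffold00214 only Glyur000214s00016017 (111572 to 112861, 1290 nt) was expressed in every library, at 11.8 to 69.9 FPKM underground and 15.0 to 70.4 FPKM in aerial parts, while its 5 fellow members stayed at or below 1.46 FPKM. It rose in underground drought, with 66.9, 44.7 and 48.9 FPKM in D against 22.8, 11.8 and 18.1 FPKM in CK (1.58, SE 0.30, adjusted p = 0.00453), and fell in aerial salt-drought (-1.18, SE 0.25, adjusted p = 0.00152). On Scaffold00843 no member of the stretch exceeded 3.74 FPKM in any library.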

How the data were processed

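Members and gene classes were taken from the deposited annotation, and the members, lists and named comparisons were chosen with earlier results of these data known. What the authors deposited is a table of FPKM values, one for every gene in every library. The submitters' processing notes list TopHat2 and Cufflinks as tools. The labels' protocols describe both nanopore full-length cDNA and Illumina libraries, and which gave the FPKM values, the versions, the strand setting and the genome build are not given in the sources used here.

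From the deposited FPKM, log2(FPKM + 1) was fitted in R 4.3.3 with limma 3.58.1 (group means, trend and robust moderation), 24 libraries per plant part or all 48 between parts, over every gene that reached 1 FPKM in 3 or more libraries of the fit (23389 aerial, 24478 underground, 26335 in both), with Benjamini-Hochberg adjustment over all of them and a threshold of 0.05. In all, 21 comparisons and 2 differences of responses were tested, and the test was checked on simulated data. The table's 4018 rows without gene models entered the fits but no gene class.

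Named are, per comparison, the at most 2 called members with the largest rise and the 2 with the largest fall whose libraries do not overlap and whose mean reaches 5 FPKM in one group. The most abundant, the most constant and the longest-stretch members are named too. In the comparison of underground with aerial controls the deviations of same-number libraries correlated at 0.297, 0.325 and 0.236, a pairing read from the data, and a block for the number gave 1642 called members in place of 1643. Alternatives were a pseudocount of 0.1, no filter, rescaling to a common median ratio, fits of only the groups compared and a replicate block. Others were leaving out each library or the 2 aerial libraries with the highest underground markers, detection at 0.1 FPKM and an overlap rule by strand. No genome sequence was used.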

Additional observations from a re-analysis of the deposited data

Results flagged for a closer look

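Of the members, 8 had a response that differed between plant parts or with silicate, by a limma test of the difference itself, among the 2 largest differences in each direction. In salt-drought, underground minus aerial response, Glyur001694s00031564 differed by 5.62 (log2, SE 0.91, adjusted p = 7.95e-05). It had 23.4, 8.32 and 17.3 FPKM in underground SD against 3.13, 1.74 and 5.78 FPKM in CK, and 5.38, 3.5 and 1.85 FPKM in aerial SD against 63.1, 64.9 and 41.1 FPKM in CK. Glyur000022s00002063 differed by 4.47 (SE 0.70, adjusted p = 5.3e-05), and had 115, 118 and 72 FPKM in aerial SD against 193, 217 and 128 FPKM in aerial CK. Glyur000051s00003460 differed by -3.42 (SE 0.24, adjusted p = 6.09e-12), with 0.198, 0.0789 and 0.295 FPKM in underground SD against 18.4, 15.1 and 17.5 FPKM in CK, and no aerial library above 0.53 FPKM. At such levels log2(FPKM + 1) leaves almost no room for an aerial fall, so this difference restates the underground fall. Glyur000374s00017965 differed by -3.40 (SE 0.56, adjusted p = 0.000111), with 3.09, 2.06 and 3.67 FPKM in underground SD against 82.5, 91.6 and 90.2 FPKM in CK. This last gene was expressed in aerial parts too, at 2.998 to 30.96 FPKM over 24 libraries (median 9.97 FPKM). Its aerial change in salt-drought is not given here, so the difference does not show that it fell underground only.

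In aerial parts, the salt-drought response with silicate minus that without it was 5.22 in Glyur002450s00037526 (SE 1.17, adjusted p = 0.0309), which had 29.4, 219 and 33.4 FPKM in SD+Si against 0.977, 2.10 and 0.393 FPKM in SD. It was 4.90 in Glyur000025s00003295 (SE 0.89, adjusted p = 0.0186), with 136, 565 and 361 FPKM in SD+Si against 85.6, 16.5 and 10.6 FPKM in SD. Both genes average more underground (884 and 1935 FPKM) than in aerial parts. Both lost their call without the 2 aerial libraries with the highest underground markers, but also without SD replicate 3 and with only the groups compared. Over all settings they lost it in 9 and 5 of 18 alternatives. The difference was -3.23 in Glyur000130s00006890 (SE 0.52, adjusted p = 0.0122) and -2.94 in Glyur000653s00025435 (SE 0.56, adjusted p = 0.0223). The latter gene lost its call without those 2 libraries too, and in 5 of 18 alternatives over all settings.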

How the results depend on the processing

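The share of members that fell was above that of all genes in 147 of 150 combinations of a stress comparison and a setting, leaving out single libraries included. These combinations share most of their libraries and are not independent. The 3 exceptions were all in aerial D+Si against CK+Si, and 2 of them had no fall at all. No named change turned round under any setting. Of 72 named changes, 23 lost their call with only the groups compared, 5 with no filter, 4 with a pseudocount of 0.1, 2 with the replicate block and 0 after rescaling. Of the 42 named changes whose fit held aerial libraries, 5 lost their call without the 2 aerial libraries with the highest underground markers. Leaving out 1 library gave 480 results for named changes, and 88 of them lost the call. Counts of called members moved by over 1.5 times mainly with only the groups compared, where fewer samples enter the fit: to 29 for aerial D, 47 for aerial S, 349 for underground S, 0 for aerial D+Si against CK+Si, 64 for aerial S+Si against CK+Si, 46 for underground D+Si against CK+Si, 2 and 3 for CK+Si against CK in aerial and underground parts, 0 for aerial SD+Si against SD, 0 for underground S+Si against S and 4 for the aerial difference in salt-drought response by silicate. With no filter aerial D+Si against D gave 1. With the replicate block, the aerial difference by silicate gave 32 and underground S+Si against S gave 5, and it moved no other count by over 1.5 times. Same-number libraries within a part correlated between -0.249 and 0.394, and in 0 of 20 comparisons were all pairs above 0.1. Without the 2 aerial libraries with the highest underground markers, aerial SD+Si against SD gave 60 and the difference by silicate 6. Leaving out 1 library gave 64 to 116 for aerial D, 135 to 218 for aerial S, 0 to 10 for aerial D+Si, 54 to 109 for aerial S+Si and 242 to 326 for aerial SD+Si against CK+Si, 3 to 24 for aerial CK+Si against CK, 0 to 2 for aerial D+Si against D, 42 to 231 for aerial SD+Si against SD and 4 to 116 for the difference by silicate. Underground it gave 33 to 120 for D+Si and 318 to 493 for S+Si against CK+Si, 1 to 10 for CK+Si against CK, 0 to 83 for S+Si against S and 0 to 53 for SD+Si against SD, and for the difference between parts 336 to 512. For moves not explained by fewer samples the cause was not tested. At the median member length 1 FPKM stands for 8.09 to 18.4 fragments, and the effect of that on short members was not tested.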
